A study of Homo sapiens with 6 samples.

Results

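The replication-dependent histone cluster genes were taken as the single-name rows of the gene table whose symbol starts with HIST1H, HIST2H, HIST3H or HIST4H, which gave 62 genes of 18268 rows. They comprised 6 linker histone H1 genes, 13 H2A genes, 15 H2B genes, 13 H3 genes and 15 H4 genes. RNA was sequenced from MIA PaCa-2, a line of human pancreatic carcinoma cells kept in DMEM with fetal bovine and horse serum. There were 3 libraries of cells overexpressing LINC00901, a long intergenic noncoding RNA, and 3 libraries of cells with the vector control, pCDH, a lentiviral expression vector. Unmodified cells were not analysed here. The labels do not say whether a line is 1 clone or whether the replicates were separate cultures, so every p-value refers to the spread among these libraries, some or all of which may be technical.

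Values are FPKM, counts of fragments scaled to gene length and to the library's mapped fragments, so levels can be set side by side between genes of different length. The depth of the libraries is unknown, and the FPKM of all rows summed to 127768 to 128538 in overexpression libraries and to 87161.9 to 88738.1 in vector libraries. The table has no row for LINC00901, so the overexpression itself was not checked here. The labels call the cells epithelial: KRT18, a keratin of simple epithelia, and the intermediate filament VIM were present in all 6 libraries, while EPCAM and CDH1 were at or near 0. The summed FPKM of the leukocyte markers was at most 0.18 in overexpression libraries and 0 in vector libraries, and that of the endothelial markers at most 0.64 in overexpression libraries and 0.28 in vector libraries. The fibroblast markers summed to 11.99 to 18.01 FPKM in overexpression libraries and to 18.42 to 19.37 FPKM in vector libraries. Of these, COL1A2 was lower, at a log2 difference of -0.68, COL1A1 was higher, at 0.82, and DCN and LUM were at or near 0. Their part in the results was not tested.

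Each nucleosome wraps DNA around core histones H2A, H2B, H3 and H4, and linker histone H1 binds where the DNA enters and leaves. Most of this protein comes from small, intronless genes that lie in clusters and are transcribed in S phase, when the new DNA must be packed. Their mRNA is the only kind in animal cells that usually ends in a conserved stem-loop instead of a poly(A) tail: SLBP binds the stem-loop, and some cluster genes can also give a polyadenylated transcript. The labels name total RNA as the molecule and do not say whether the libraries selected poly(A). In bulk RNA, more cells in S phase and more histone RNA per cell cannot be told apart.

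The stem-loop is shown because the mRNAs of cluster histone genes usually end in it. The 16 bases GGCNNTTTNNANNGCC were searched on the sense strand of the GENCODE 29 transcripts after the coding sequence. They were found in 28 of the 62 members: 7 H2A, 8 H2B, 5 H3 and 8 H4 genes, and no H1 gene. The models of 29 members end at the stop codon and cannot hold it, and of the 33 members with at least 40 bases after the stop codon 28 held it. The same search of all 19652 protein-coding genes, the members included, found these letters in 60 (0.305%). All 8 H4 stem-loops read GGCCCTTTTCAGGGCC or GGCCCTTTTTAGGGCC. Of the 20 in the other classes, 14 read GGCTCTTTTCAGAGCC. Stem-loops of an H2A gene that was lower, an H2A and an H4 gene that were higher, and an H4 gene with an identical copy are given here, with the stem-loop in capitals.
HIST1H2AC: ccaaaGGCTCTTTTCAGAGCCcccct
HIST1H2AE: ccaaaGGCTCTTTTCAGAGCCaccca
HIST1H4E: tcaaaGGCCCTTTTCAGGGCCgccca
HIST1H4J: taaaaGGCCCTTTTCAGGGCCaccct

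Promoters are shown for the members on which the per-gene results turn. RefSeq promoters of build GRCh38.p14, 250 bases before to 50 after the start, matched 53 of the 62 members. The others are HIST1H2AH, HIST1H3B, HIST1H3C, HIST1H3I, HIST1H4A, HIST1H4C, HIST2H2AA3, HIST2H2AA4 and HIST2H3PS2. HIST1H2AC, which was lower, is at chr6:26123922-26124221 on the plus strand. HIST1H2BI, which was lower, is at chr6:26272681-26272980 on the plus strand. HIST1H2BK, which was higher, is at chr6:27146809-27147108 on the minus strand. HIST1H4E, which was higher, is at chr6:26204360-26204659 on the plus strand. Capitals mark the CCAAT box (CCAAT), the H2B octamer (ATTTGCAT) and the TATA box (TATAAA) on either strand, and a match to the last can overlap another on the opposite strand.
HIST1H2AC: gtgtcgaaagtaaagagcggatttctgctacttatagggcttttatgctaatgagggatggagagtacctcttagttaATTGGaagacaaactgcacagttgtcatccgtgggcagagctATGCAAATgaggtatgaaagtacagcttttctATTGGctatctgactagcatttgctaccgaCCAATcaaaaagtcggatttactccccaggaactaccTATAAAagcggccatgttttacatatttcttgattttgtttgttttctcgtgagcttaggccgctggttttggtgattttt
HIST1H2BI: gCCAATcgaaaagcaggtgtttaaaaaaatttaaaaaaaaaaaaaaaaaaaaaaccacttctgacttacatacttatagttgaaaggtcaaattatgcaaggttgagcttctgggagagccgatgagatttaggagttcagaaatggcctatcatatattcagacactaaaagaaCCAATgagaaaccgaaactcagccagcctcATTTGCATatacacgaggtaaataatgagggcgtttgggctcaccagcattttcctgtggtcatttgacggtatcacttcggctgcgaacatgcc
HIST1H2BK: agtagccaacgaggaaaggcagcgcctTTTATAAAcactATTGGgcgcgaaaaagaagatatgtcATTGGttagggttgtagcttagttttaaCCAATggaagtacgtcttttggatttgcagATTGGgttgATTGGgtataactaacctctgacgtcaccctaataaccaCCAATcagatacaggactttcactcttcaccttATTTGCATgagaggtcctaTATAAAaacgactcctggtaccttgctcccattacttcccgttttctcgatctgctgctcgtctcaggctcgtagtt
HIST1H4E: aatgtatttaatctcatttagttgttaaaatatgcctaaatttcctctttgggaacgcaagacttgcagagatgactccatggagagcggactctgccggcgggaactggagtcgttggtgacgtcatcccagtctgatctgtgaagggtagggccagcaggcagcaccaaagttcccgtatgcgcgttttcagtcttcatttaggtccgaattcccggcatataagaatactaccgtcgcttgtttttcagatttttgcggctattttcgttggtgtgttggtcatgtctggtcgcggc

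The octamer ATTTGCAT, the binding motif of POU factors such as POU2F1 and known from H2B promoters, was present in 12 of 15 H2B and 7 of 10 H2A windows and in no H1, H3 or H4 window. Over all 27305 RefSeq promoters 1.80% held it. CCAAT was present in every H1, H2A, H2B and H3 window and in 3 of 13 H4 windows, against 35.7% of all promoters. TATAAA was present in 69.8% of the 53 windows, against 11.95% of all promoters. HIST1H2AC, which was lower, and HIST1H2BK, which was higher, held all 3 motifs, and HIST1H4E, which was higher, held none, so these letters did not sort the 4 shown by direction. A match is a description of the sequence and not a site of binding.

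Of the 62 members, 51 averaged at least 1 FPKM across all libraries and were tested. The 11 below that level did not exceed 2.26 FPKM in any library, and HIST1H2AA, HIST1H2AK, HIST1H2BA and HIST1H4G were listed at 0 in all 6. Such a 0 may stand for a failed estimate and not for absence. The filter passed HIST1H4I at a mean of 1.59 FPKM and left out HIST3H3 at 0.828 FPKM. The 4 members known from the male germ line were all below it: HIST1H1T, a spermatocyte linker histone, had 1.03, 1.07 and 1.03 FPKM in overexpression libraries and 0, 0.55 and 0.47 FPKM in vector libraries.

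Together the members had 6045.72, 5581.22 and 5871.96 FPKM in overexpression libraries, against 3387.74, 3269.56 and 3416.86 FPKM in vector libraries. The groups did not overlap, and the mean was 1.74-fold higher with overexpression. The sum over all rows was higher in overexpression libraries too, and the members made up 4.70%, 4.35% and 4.60% of it there, against 3.89%, 3.75% and 3.85% in vector libraries. Relative to that sum the members were 1.19-fold higher, and relative to the median tested row, which was itself 0.21 higher on the log2 scale (1.16-fold), they were 1.503-fold higher. In these 3 scalings the direction was the same and the size was not.

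The order of the classes by level was the same in both groups, with H4 highest and H1 lowest on the mean of the summed FPKM. H4 genes summed to 2460.05, 2386.63 and 2382.54 FPKM in overexpression libraries, against 1341.47, 1261.53 and 1301.55 FPKM in vector libraries, a 1.85-fold difference. H1 genes summed to 612.99, 579.3 and 583.35 FPKM with overexpression, against 269.93, 247.84 and 279.29 FPKM with vector, a 2.23-fold difference and the largest of the 5 classes. In both classes every overexpression library lay above every vector library.

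H3 genes averaged 726 ± 26.8 FPKM in overexpression libraries and 363 ± 25.1 FPKM in vector libraries (SD, n = 3 each), 2.001-fold apart. H2B genes averaged 1117 ± 128 FPKM in overexpression libraries and 733 ± 29.5 FPKM in vector libraries, 1.52-fold apart. H2A genes averaged 988 ± 67.1 FPKM in overexpression libraries and 695 ± 14.2 FPKM in vector libraries, 1.42-fold apart. For each class and for all members together, the 2-sided exact permutation test gave p = 0.10 (0.10 after Benjamini-Hochberg adjustment over the 6 sums), the smallest value that 3 against 3 libraries allow. Relative to the FPKM sum of all rows the fold was 1.52 for H1, 1.37 for H3, 1.27 for H4, 1.04 for H2B and 0.972 for H2A, so the H2A sum was higher as deposited and lower on that scale.

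The makeup of the histone RNA differed between the groups in a way that no scaling of whole libraries can change. Each class is set against the other members of the same library. The trend with transcript length given below acts gene by gene, and the shares were not recomputed without it. H1 genes held 10.1%, 10.4% and 9.93% of the members' FPKM in overexpression libraries, against 7.97%, 7.58% and 8.17% in vector libraries. H2A genes held 17.3%, 16.4% and 17.0% with overexpression, against 20.9%, 20.8% and 20.4% with vector. H2B genes held 19.1% ± 1.46 with overexpression and 21.8% ± 1.10 with vector (SD, n = 3 each). The shares of H1 were thus higher and those of H2A and H2B lower in overexpression libraries, with no overlap in any of the 3.

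H4 genes held 41.3% ± 1.23 in overexpression libraries and 38.8% ± 0.768 in vector libraries (SD, n = 3 each). H3 genes held 12.5% ± 0.769 in overexpression libraries and 10.8% ± 0.504 in vector libraries. These shares were higher with overexpression, again without overlap. The pair HIST1H4J and HIST1H4K, identical in coding sequence, was 3.22-fold higher, against 1.85-fold for the H4 sum. The H4 share was not computed without this pair. Each of the 5 differences reached the exact permutation p of 0.10, the smallest possible, and the shares sum to 100%, so they are not independent of each other. HIST1H2AH alone, the H2A gene with the highest mean, held 17.3% of the H2A sum with overexpression and 24.1% with vector, and without it the difference in the H2A share, overexpression minus vector, was still -3.13 percentage points.

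**Figure D1:**
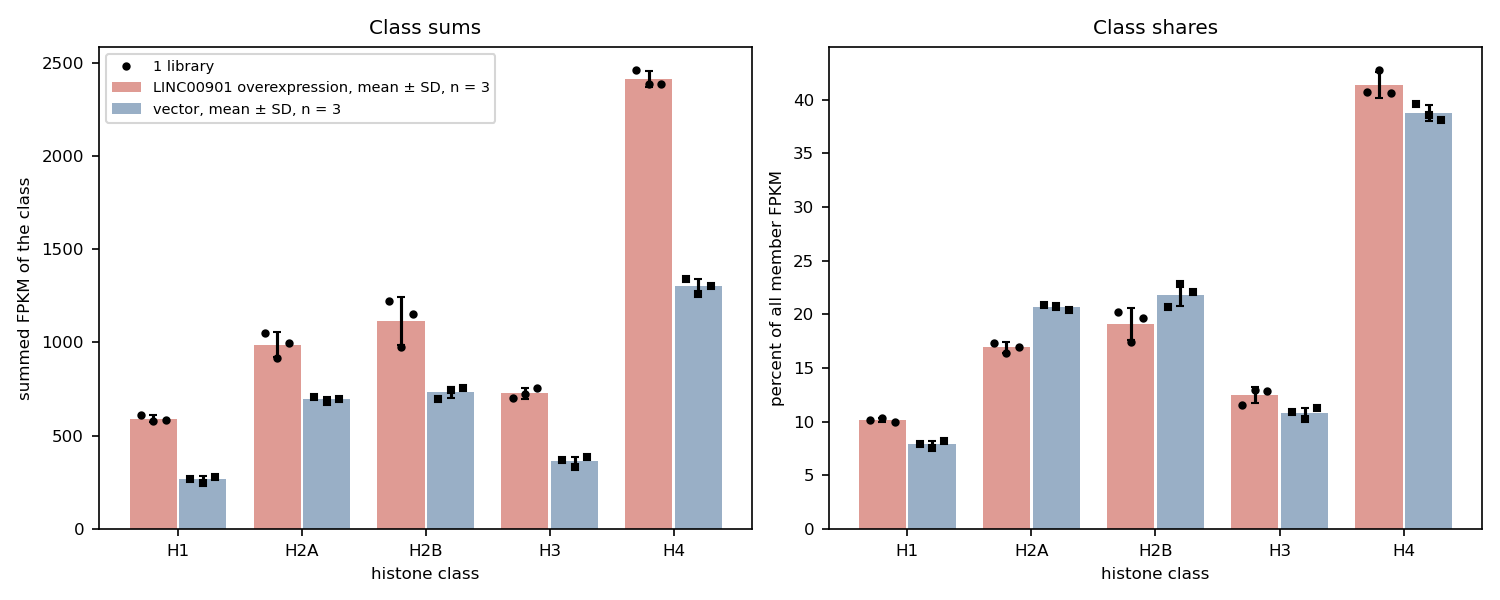
Summed FPKM of each histone class (left) and the share of each class in the FPKM of all members (right, percent), with bars for the mean, error bars for the SD and a point per library (n = 3 each). Every class sum is higher in overexpression libraries, while the shares of H2A (16.9% with overexpression, 20.7% with vector) and H2B (19.1% with overexpression, 21.8% with vector) are lower and those of H1, H3 and H4 higher.

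Gene by gene, each library was centred on its median tested row and the groups were compared with limma on log2(FPKM + 0.5), a scale that understates the change of low genes. Of the 51 tested members 28 were called higher and 5 lower in overexpression libraries at an adjusted p under 0.05. Over all 9694 tested rows 24% were called higher, 19.2% lower and 43.3% in either direction, against 54.9%, 9.80% and 33 of 51 among the members. The median log2 difference was 0.66 over the members and 0.06 over all tested rows. By class, 4 of 4 H1, 4 of 11 H2A, 6 of 13 H2B, 6 of 10 H3 and 8 of 13 H4 genes were higher. Lower calls were 3 in H2A, 1 in H2B and 1 in H3.

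This balance depended on the scaling. Without centring, 36 members were higher and 3 lower, beside 37.4% and 11.9% of all rows (49.2% in either direction). With quantile normalization, 15 were higher and 12 lower, beside 19.2% and 20.9% of all rows (40.1% in either direction), and the members' median was 0.18. With a trend on transcript length and GC content removed in each library, 11 were higher and 11 lower, beside 21% and 18.6% of all rows (39.6% in either direction), and the median was -0.01. That last share is close to the background in both directions.

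Transcript length moved with the difference in the whole table. Among the 1766 rows with the shortest transcripts, 42.4% were higher and 10.1% lower, with a median of 0.39, and 47 of the 51 tested members lay there. Among the 1766 with the longest transcripts the median was -0.16 and no member was found. Among the 1939 rows with the highest levels, which held 39 members, the median was 0.34, and among the 1939 with the lowest it was -0.13. The tested members had transcripts of 312 to 2679 bases, with a median of 549. How much of the members' difference goes with length and how much with level was not tested beyond the fit with the length and GC trend removed.

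Called the same way under all 4 scalings were 13 members. The same count over all tested rows was not made, so no background share stands beside it. HIST1H1C, HIST1H1D, HIST1H1E, HIST1H2AE, HIST1H2AI, HIST1H2BE, HIST1H2BK, HIST1H3B, HIST1H4E and HIST2H4B were higher, and HIST1H2AC, HIST1H2BI and HIST1H3F were lower. The other 20 of the 33 called members lost their call, or changed direction, under at least 1 of the other 3 scalings. Before any scaling, all overexpression libraries lay above all vector libraries in 37 of the 51 members, against 44.9% of all tested rows, and below them in 3, against 15.6%. The 3 below were the same 3 that were lower under all scalings, of which HIST1H2BI passed the filter through its vector libraries alone.

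**Figure D2:**
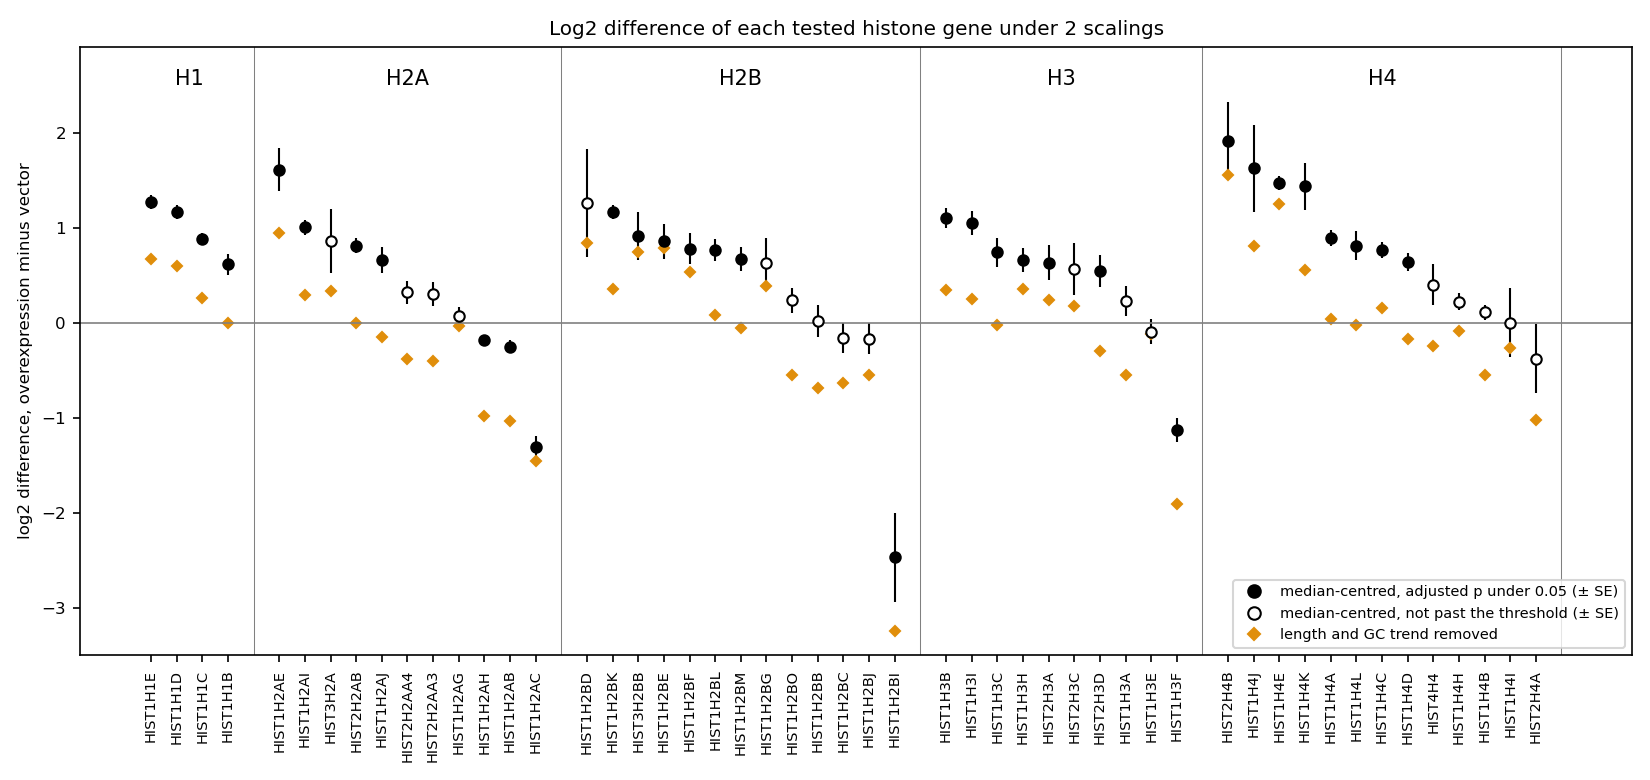
Log2 difference of each tested member, overexpression minus vector, by class, with the median-centred value (circles, ± SE, filled where the limma adjusted p was under 0.05) and the value with the length and GC trend removed (diamonds). The diamonds lie below the circles for most members, and the genes farthest below 0 on both are HIST1H2BI, HIST1H2AC and HIST1H3F.

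Linker histone H1 genes moved together. HIST1H1E had 103.72, 114.84 and 115.8 FPKM in overexpression libraries, against 39.02, 40.75 and 38.99 FPKM in vector libraries. HIST1H1D had 178.56, 161.51 and 164.29 FPKM with overexpression, against 63.84, 59.94 and 70.74 FPKM with vector. HIST1H1C had 164.68, 158.15 and 150.21 FPKM with overexpression, against 70.52, 73.75 and 77.1 FPKM with vector. In all 3 the groups were far apart compared with the spread within them.

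Relative to the median row the log2 differences were 1.27 ± 0.07 for HIST1H1E (SE, limma adjusted p = 0.000135), 1.16 ± 0.07 for HIST1H1D (limma adjusted p = 0.000171) and 0.88 ± 0.06 for HIST1H1C (limma adjusted p = 0.000248). HIST1H1B, the linker gene with the highest mean, had 165, 143.73 and 151.9 FPKM with overexpression, against 96.55, 72.85 and 91.46 FPKM with vector. Its difference of 0.62 ± 0.11 (limma adjusted p = 0.00494) was the smallest of the 4, and under quantile normalization and the length and GC fit it lay just below 0. These 4 genes encode subtypes of the somatic linker histone, and the coding sequences of H1 members are 77.6% identical at most, against 93.9% to 100% for the closest pair of each other class. The HIST1H1A gene, of the same group, had no value above 0.53 FPKM.

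H2A genes went in both directions. HIST1H2AE had 66.14, 41.75 and 66.17 FPKM in overexpression libraries, against 12.18, 16.42 and 19.43 FPKM in vector libraries, a log2 difference of 1.61 ± 0.23 (limma adjusted p = 0.00199). HIST1H2AI had 94.39, 82.82 and 89.84 FPKM with overexpression, against 38.22, 34.93 and 41.49 FPKM with vector, and rose by 1.002 ± 0.082 (limma adjusted p = 0.000362). HIST2H2AB, in the cluster on chromosome 1, had 50.83, 48.52 and 46.96 FPKM with overexpression, against 25.15, 23.74 and 22.56 FPKM with vector, and rose by 0.81 ± 0.08 (limma adjusted p = 0.000531). None of these groups overlapped. HIST1H2AJ also rose, by 0.66 ± 0.14 (limma adjusted p = 0.00894). Once the length and GC trend was removed, HIST2H2AB stood at -0.00060 and HIST1H2AJ at -0.15, and neither was called. Under quantile normalization HIST2H2AB kept its call, at 0.44, and HIST1H2AJ, at 0.05, did not.

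HIST1H2AC, known to give a polyadenylated transcript as well as the stem-loop one shown above, was the H2A gene with the largest fall. It had 6.78, 7.38 and 5.76 FPKM in overexpression libraries, against 14.9, 13.16 and 16.51 FPKM in vector libraries, and fell by 1.31 on the log2 scale (SE 0.13, limma adjusted p = 0.000537). Every overexpression library lay below every vector library, and the direction was the same under all 4 scalings.

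HIST1H2AH, the H2A gene with the highest mean, had nearly the same FPKM in all 6 libraries: 171.15, 169.73 and 170.51 with overexpression, and 164.93, 166.26 and 170.16 with vector. The groups overlapped as deposited, and relative to the median row it was called lower, by a log2 difference of -0.18 ± 0.05 (limma adjusted p = 0.0205). HIST1H2AB, at 83.99, 75.65 and 84.1 FPKM with overexpression and 79.53, 85.09 and 86.7 FPKM with vector, was also called lower after centring, at -0.25 ± 0.07 (limma adjusted p = 0.0232). Without centring HIST1H2AH stood at 0.03 and HIST1H2AB at -0.04, and neither was called. Both were called lower under the other two scalings, HIST1H2AH at -0.87 with quantile normalization and -0.99 once the length and GC trend was removed, and HIST1H2AB at -0.84 and -1.04 in the same order. Both calls also rest on single libraries. The limma adjusted p of HIST1H2AH was 0.0703 without overexpression replicate 3 and passed 0.05 as well without vector replicate 3. That of HIST1H2AB reached 0.0623, and its call was lost without overexpression replicate 2, vector replicate 2 or vector replicate 3.

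HIST2H2AA3, which has an identical copy, averaged 167 ± 19.7 FPKM with overexpression and 117 ± 16.2 FPKM with vector (SD, n = 3 each), and its difference of 0.30 ± 0.13 did not pass (limma adjusted p = 0.0905). Without vector replicate 1 the limma adjusted p of HIST2H2AA3 was 0.0370. HIST3H2A, of the small HIST3 cluster on chromosome 1, had 11.66, 13.78 and 14.37 FPKM with overexpression, against 10.95, 3.87 and 5.13 FPKM with vector. Its difference of 0.86 ± 0.34 did not pass either (limma adjusted p = 0.0775), and without vector replicate 1 the limma adjusted p of HIST3H2A was 0.00343. Vector replicate 1 was the highest vector library in both genes.

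H2B genes had log2 differences from -2.47 to 1.26. The lowest was that of HIST1H2BI, which passed the filter through its vector libraries alone, so the width of this range is not compared with other classes. HIST1H2BK, a cluster gene known to give polyadenylated mRNA in many tissues, had 179.38, 164.53 and 172.63 FPKM in overexpression libraries, against 65.64, 60.81 and 72.95 FPKM in vector libraries. It rose by 1.16 ± 0.07 (limma adjusted p = 0.000179), and its groups were far apart. HIST1H2BE, a low gene at 5.4, 4.23 and 5.53 FPKM with overexpression and 1.6, 2.58 and 2.36 FPKM with vector, rose by 0.85 ± 0.18 (limma adjusted p = 0.00925). HIST3H2BB had 5.8, 5.19 and 6.25 FPKM with overexpression, against 1.64, 2.02 and 3.87 FPKM with vector, and rose by 0.91 ± 0.26 (limma adjusted p = 0.0268). The call of HIST3H2BB was lost in 5 of the 6 fits that each left out a library, all but the one without vector replicate 3, with a limma adjusted p of up to 0.0800.

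HIST1H2BI had 0.29, 0.6 and 1.58 FPKM in overexpression libraries, against 10.12, 4.1 and 3.58 FPKM in vector libraries, with no overlap although both groups were widely spread. It passed the filter on low values through the vector group alone, with a mean of 0.823 FPKM in overexpression libraries and 5.93 FPKM in vector libraries, so it had to differ, and its log2 difference of -2.47 ± 0.47 (limma adjusted p = 0.00627) is given as a description. Its coding sequence is 93.1% identical to that of HIST1H2BL, which was far higher in level and moved the other way, with 155.81, 124.99 and 157.2 FPKM with overexpression and 65.92, 81.88 and 73.94 FPKM with vector. How reads were shared between the copies is not given in the sources used here.

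HIST1H2BO, the H2B gene with the highest mean, had 282.4, 236.4 and 260.99 FPKM in overexpression libraries, against 158.05, 221.74 and 197.39 FPKM in vector libraries. Its groups did not overlap as deposited, but relative to the median row the difference of 0.23 ± 0.13 did not pass (limma adjusted p = 0.182). HIST1H2BC had 164.28, 102.73 and 148.62 FPKM with overexpression, against 132.77, 131.76 and 130.13 FPKM with vector: the overexpression libraries lay on both sides of the vector ones (limma adjusted p = 0.441). HIST1H2BJ had 83.31, 53.19 and 72 FPKM with overexpression, against 65.24, 59.48 and 75.59 FPKM with vector, which also overlapped (limma adjusted p = 0.438). Both are among the cluster genes known to give a polyadenylated transcript.

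HIST1H2BD, which belongs to the same polyadenylated set, had 16.61, 49.51 and 22.01 FPKM in overexpression libraries, against 18.51, 9.22 and 4.46 FPKM in vector libraries. Its difference of 1.26 ± 0.57 was the largest positive value among H2B genes and did not pass (limma adjusted p = 0.114). Without vector replicate 1 the limma adjusted p of HIST1H2BD was 0.0442. Overexpression replicate 2 was the lowest of its group in 30 of the 51 tested members (58.8%) and in 11 of the 13 H2B genes, against 38.3% of all tested rows. HIST1H2BD was the H2B gene in which that library was the highest.

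Of the 8 cluster genes in the list of those known to give polyadenylated mRNA, HIST1H1C and HIST1H2BK were higher, HIST1H2AC was lower and 5 did not pass. Their median was 0.63, close to the 0.66 of all tested members. Over all tested rows 24% were higher and 19.2% lower. With quantile normalization 2 of the 8 were higher and 3 lower, with a median of 0.33, beside 19.2% and 20.9% of all rows. Removing the length and GC trend gave 2 higher and 3 lower and a median of 0.0061, beside 21% and 18.6%. HIST4H4, the only member on chromosome 12, had 7.33, 4.79 and 4.63 FPKM in overexpression libraries, against 3.69, 4.03 and 2.66 FPKM in vector libraries (limma adjusted p = 0.171).

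H3 genes of the large cluster encode a single H3 protein from coding sequences of differing letters. HIST1H3B had 203.34, 228.87 and 213.25 FPKM in overexpression libraries, against 97.94, 86.86 and 75.71 FPKM in vector libraries, and rose by 1.10 ± 0.11 (limma adjusted p = 0.000590). HIST1H3C, the H3 gene with the highest mean, had 245.12, 237.69 and 255.73 FPKM with overexpression, against 126.24, 100.43 and 161.98 FPKM with vector, and rose by 0.74 ± 0.15 (limma adjusted p = 0.00853). HIST1H3I had 91.15, 108.73 and 114.81 FPKM with overexpression, against 42.57, 49.14 and 39.26 FPKM with vector, and rose by 1.05 ± 0.12 (limma adjusted p = 0.00113). In these 3 every overexpression library lay above every vector library, as in 44.9% of all tested rows. HIST1H3C was not called under quantile normalization, at 0.08, or once the length and GC trend was removed, at -0.03. HIST1H3I kept its call under the former, at 0.52, and lost it under the latter, at 0.25. HIST1H3B was called higher under both.

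HIST1H3F went the other way. It had 1.9, 1.46 and 1.5 FPKM in overexpression libraries, against 3.55, 3.26 and 3.73 FPKM in vector libraries, and fell by 1.13 on the log2 scale (SE 0.13, limma adjusted p = 0.000926). The groups were tight and did not overlap, far below the level of HIST1H3C. HIST1H3E, of similar level, overlapped at 1.7, 1.93 and 1.97 FPKM with overexpression and 1.7, 1.45 and 1.93 FPKM with vector.

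H4 genes, nearly all of which encode the same protein, held the most RNA. HIST1H4D was the member with the highest mean, at 786.14, 720.66 and 728.66 FPKM in overexpression libraries and 476.46, 392.7 and 376.63 FPKM in vector libraries. It rose by 0.64 ± 0.09 (limma adjusted p = 0.00245), but stood at -0.03 under quantile normalization and -0.17 with the length and GC trend removed. HIST1H4C had 306.63, 275.68 and 290.58 FPKM with overexpression, against 150.62, 131.08 and 163.99 FPKM with vector, and rose by 0.76 ± 0.08 (limma adjusted p = 0.000886). Its call was lost under quantile normalization, at 0.09, and once the length and GC trend was removed, at 0.16. HIST1H4B had 381.28, 425.15 and 372.22 FPKM with overexpression, against 294.76, 332.92 and 318.63 FPKM with vector. These groups did not overlap as deposited, and the difference of 0.11 ± 0.08 relative to the median row did not pass (limma adjusted p = 0.284).

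HIST1H4E, whose promoter and stem-loop are given above, had 81.1, 85.88 and 79.74 FPKM in overexpression libraries, against 24.41, 26.98 and 24.94 FPKM in vector libraries. Its rise of 1.47 ± 0.07 had the smallest limma adjusted p of all members, 0.000118, and it kept its direction and call under all 4 scalings. HIST2H4B had 17.08, 16.51 and 21.62 FPKM with overexpression, against 1.81, 7.39 and 3.92 FPKM with vector, and a difference of 1.91 ± 0.41 (limma adjusted p = 0.00991). HIST1H4J had 208.62, 221.01 and 97.73 FPKM with overexpression, against 24.28, 56.4 and 70.74 FPKM with vector, and a difference of 1.63 ± 0.46 (limma adjusted p = 0.0273). Without overexpression replicate 1 or replicate 2 the call of HIST1H4J was lost, with a limma adjusted p of up to 0.0864. Both HIST2H4B and HIST1H4J have an identical copy in the table, which bears on how their values can be read.

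**Figure D3:**
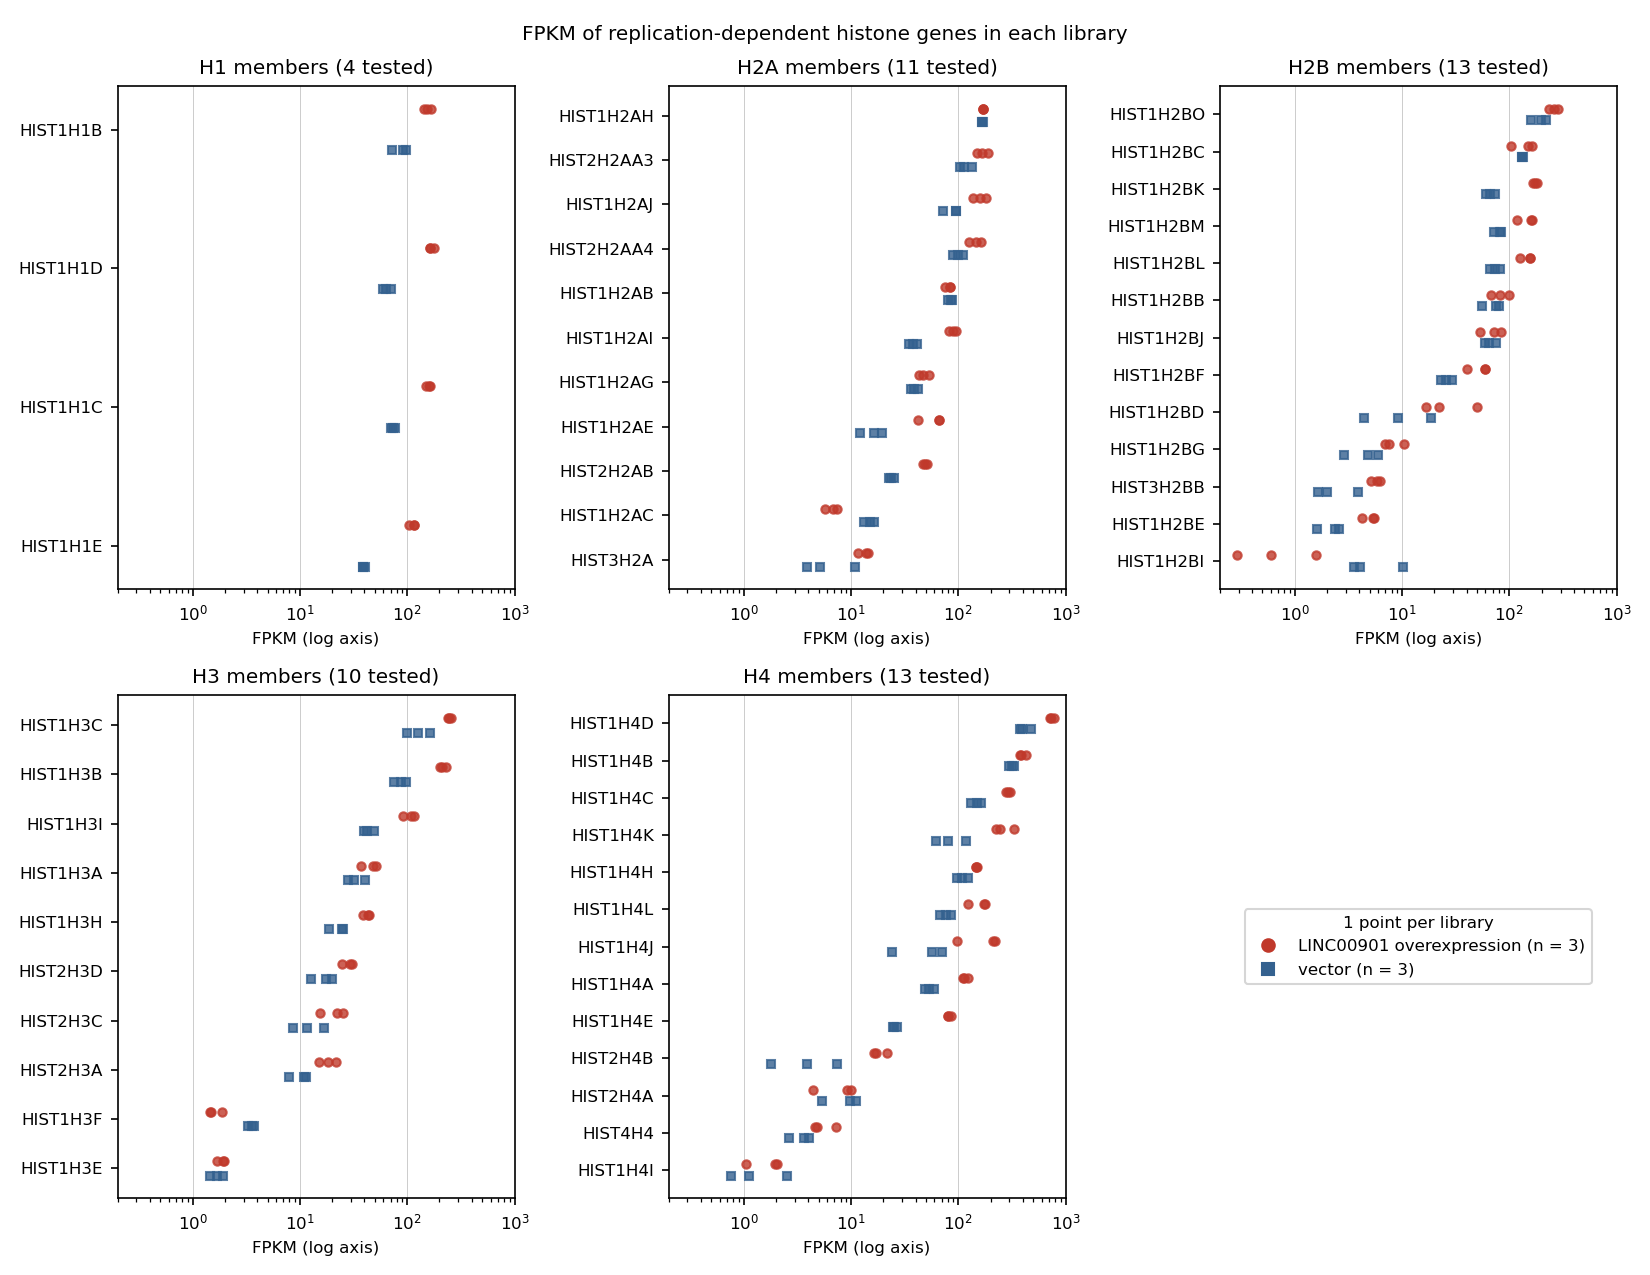
FPKM of each tested member in each library on a log axis, by class, with members in order of their mean, circles for LINC00901 overexpression and squares for vector (n = 3 each). The circles lie right of the squares in most members, the 2 kinds coincide in HIST1H2AH, and the circles lie left of the squares in HIST1H2AC, HIST1H2BI and HIST1H3F.

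In 4 pairs of members the coding sequences are identical letter by letter, so reads from the coding part cannot be assigned to either gene. HIST1H4J and HIST1H4K together had 433, 466 and 430 FPKM in overexpression libraries, against 142, 118 and 152 FPKM in vector libraries, a 3.22-fold difference. The share given to HIST1H4J was 48.2%, 47.4% and 22.7% with overexpression, and 17.0%, 47.7% and 46.7% with vector. The sum was thus steady within groups while its split was not: its coefficient of variation was 4.50% with overexpression and 12.5% with vector, whereas HIST1H4J alone varied by 38.6% with overexpression and 47.1% with vector.

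Summed before the fit, a choice made after the values were seen, HIST1H4J and HIST1H4K rose by 1.48 ± 0.09 (limma adjusted p = 0.000154). HIST2H4A and HIST2H4B together had 21.5, 25.6 and 31.7 FPKM with overexpression, against 13.0, 12.8 and 13.8 FPKM with vector, and rose by 0.74 ± 0.14 (limma adjusted p = 0.00639). HIST2H4A held 20.5%, 35.6% and 31.8% of that sum with overexpression and 86.1%, 42.1% and 71.5% with vector. Alone, HIST2H4B was higher by 1.91 and HIST2H4A did not pass, with a value of -0.38. The size given for HIST2H4B therefore holds for its row and not for the pair.

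HIST2H2AA3 and HIST2H2AA4 together had 330, 296 and 313 FPKM in overexpression libraries, against 225, 225 and 203 FPKM in vector libraries, and rose by 0.31 ± 0.07 (limma adjusted p = 0.0103), whereas neither passed alone. HIST2H3A and HIST2H3C together had 30.7, 44.1 and 43.6 FPKM with overexpression, against 28.0, 22.7 and 16.5 FPKM with vector. Their summed difference of 0.61 ± 0.23 did not pass (limma adjusted p = 0.0670), although HIST2H3A alone did (limma adjusted p = 0.0325). That call was lost without overexpression replicate 2 or 3 or vector replicate 3, with a limma adjusted p of up to 0.0951 for HIST2H3A. In 3 of the 4 pairs the split of overexpression replicate 3 and vector replicate 1 stood apart from that of the other 4 libraries: for HIST2H2AA3 it was 59.95% and 59.97% in those libraries, and 50.1% to 50.7% in the others. Outside these 4 pairs the closest copies are HIST2H3D and HIST2H3PS2, which differ at 5 bases. Identity within a class had a median of 68.6% in H1, 84.9% in H2A, 88.9% in H2B, 85.3% in H3 and 83.5% in H4.

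**Figure D4:**
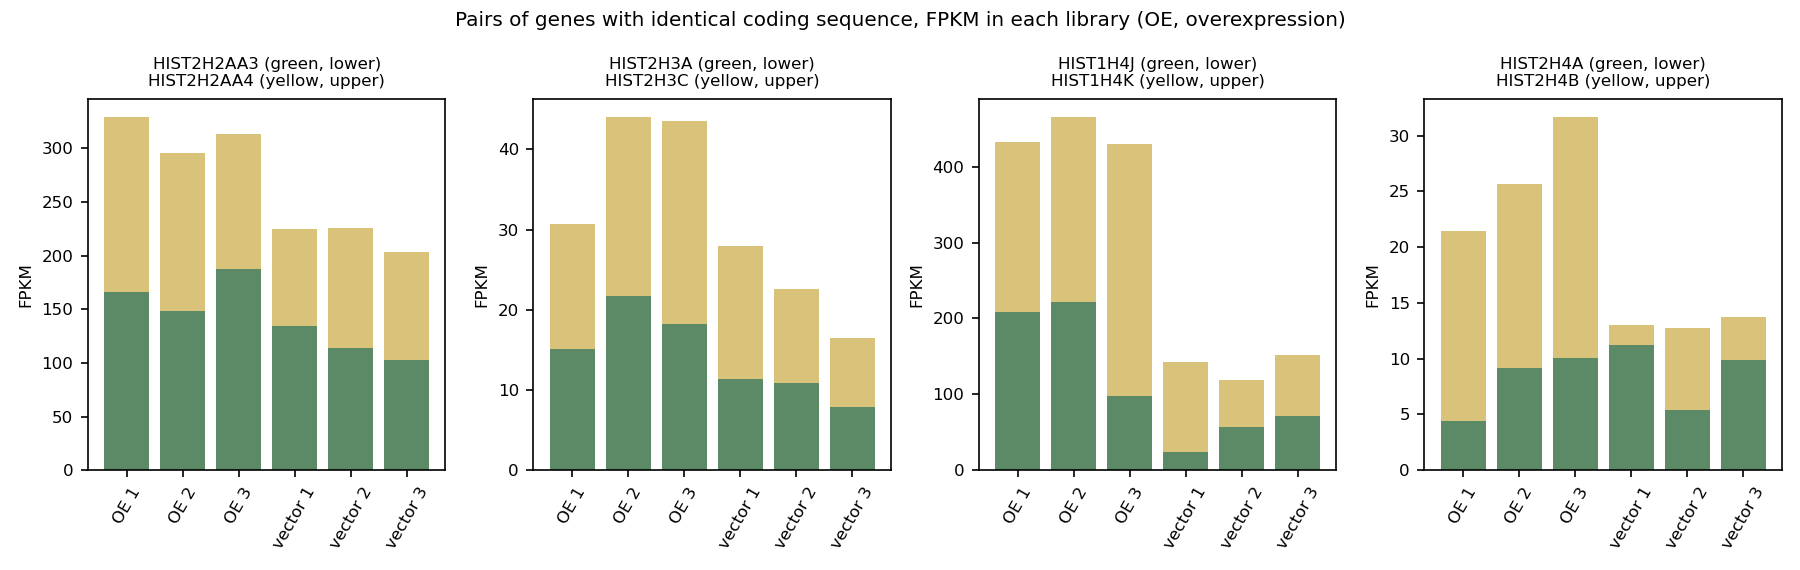
FPKM of the 4 pairs of members with identical coding sequence in each library, overexpression (OE) left and vector right, stacked so that the bar height is the sum of the pair. The heights are higher in overexpression libraries in all 4 pairs, while the split within a bar varies between libraries of the same group, as for HIST1H4J with 22.7% in overexpression replicate 3 and 17.0% in vector replicate 1.

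H2A and H2B genes often lie head to head, so that both start from a shared stretch such as those of HIST1H2AC and HIST1H2BK shown above. GENCODE 29 has 11 such pairs, and both genes were tested in 7, with 219 to 331 bases between their starts. In 3 of these 7 pairs both genes had the same call: HIST1H2AI and HIST1H2BL were both higher, HIST1H2AJ and HIST1H2BM were both higher, and neither HIST1H2AG nor HIST1H2BJ was called. Of all 51 tested members 28 were higher, 5 lower and 18 not called. How often members not paired in this way share a call was not computed.

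The widest gap was between HIST1H2AH, lower at -0.18, and HIST1H2BK, higher at 1.16. The FPKM ratio of HIST1H2AH to HIST1H2BK was 0.954, 1.03 and 0.988 in overexpression libraries, against 2.51, 2.73 and 2.33 in vector libraries, with no overlap. This ratio does not change with the scaling of whole libraries. The ratio of HIST1H2AC to HIST1H2BC was 0.0413, 0.0718 and 0.0388 with overexpression, against 0.112, 0.0999 and 0.127 with vector, again without overlap. For HIST1H2AE and HIST1H2BG it was 6.35, 6.02 and 8.73 with overexpression, against 2.55, 2.74 and 6.70 with vector, which overlapped.

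**Figure D5:**
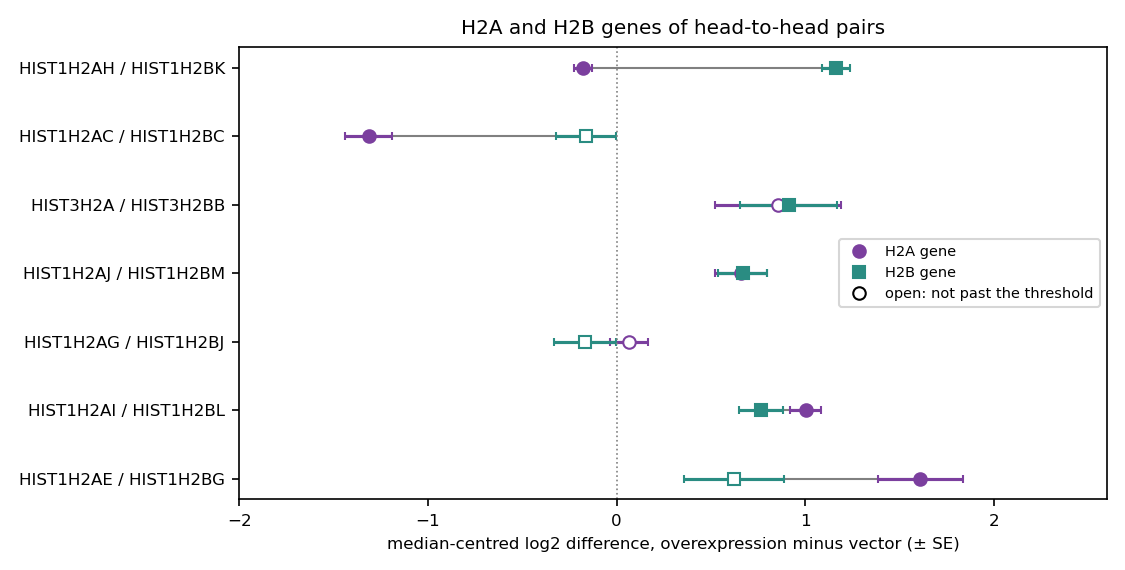
Median-centred log2 difference (± SE), overexpression minus vector, of the H2A gene (circle) and the H2B gene (square) of each of the 7 head-to-head pairs with both genes tested, filled where the limma adjusted p was under 0.05. HIST1H2AH and HIST1H2BK lie farthest apart, at -0.18 and 1.16, and HIST1H2AJ and HIST1H2BM closest, at 0.66 and 0.67.

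By position in GENCODE 29, the tested members of chromosome 6 fall into 3 stretches, whose counts stand beside 24% higher and 19.2% lower over all tested rows. In the first, from HIST1H2AA to HIST1H4H, 12 of 24 tested members were higher and 4 lower, with a median of 0.69. In the middle stretch, from HIST1H2BJ to HIST1H2AH, 1 of 5 was higher and 1 lower, with a median of 0.00. In the last, from HIST1H2BL to HIST1H2BO, 10 of 11 were higher and none lower, with a median of 0.77. Once the length and GC trend was removed, HIST1H2AI, at 0.29, alone kept its higher call in this last stretch. HIST1H2BO was lower there, at -0.55, beside 21% higher and 18.6% lower over all rows on that scale. The other stretches were not counted on that scale. On chromosome 1, 4 of 8 tested members of the cluster from HIST2H2BF to HIST2H2AB were higher and none lower, with a median of 0.55. The stretches were not tested against each other.

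The annotated 3′ end differed among the members, and the counts here again stand beside 24% and 19.2% of all rows. Of the 22 tested members whose model ends at the stop codon, 15 were higher and 4 lower, with a median level of 156 FPKM in overexpression libraries and 75.5 FPKM in vector libraries. Of the 20 whose model reaches over 200 bases past the stop codon, 7 were higher and 1 lower, with a median level of 18.4 FPKM with overexpression and 10.4 FPKM with vector. The median log2 difference of the members that end at the stop codon was 0.67, and -0.04 once the length and GC trend was removed. That of the members reaching over 200 bases past it was 0.59, and 0.21 once the trend was removed. The gene lengths behind the FPKM are not known, so levels of members whose models differ this much in length are set side by side with that limit.

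Another 5 rows join a cluster histone name with other names. Relative to the median row 4 of them were higher and none lower, beside 24% and 19.2% of all tested rows. The row of HIST1H2BN and HIST1H2AL, an H2B and an H2A gene, had 15.71, 15.77 and 15.81 FPKM in overexpression libraries, against 5.31, 7.72 and 5.27 FPKM in vector libraries, and rose by 1.11 ± 0.15 (limma adjusted p = 0.00197). The row of HIST2H2BF and HIST2H2BE did not pass, with a difference of -0.24. Their values cannot be assigned to a single gene, so they were left out of the class sums.

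Genes that make and process histone mRNA were called in both directions. Of 23 tested members of that list, 2 were higher and 4 lower, with a median of 0.03, beside 24% and 19.2% of all rows. SLBP, which binds the stem-loop, had 27.65, 27.43 and 21.08 FPKM in overexpression libraries, against 23, 21.29 and 17.41 FPKM in vector libraries, which overlapped (limma adjusted p = 0.666). CCNE2, a cyclin E that activates CDK2 at the start of S phase, had 1.22, 1.29 and 1.34 FPKM with overexpression, against 4.15, 2.37 and 3.52 FPKM with vector, and fell by 1.29 (limma adjusted p = 0.00238).

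ERI1, the exonuclease that trims the stem-loop end, averaged 6.02 ± 2.56 FPKM in overexpression libraries and 10.7 ± 0.269 FPKM in vector libraries (SD, n = 3 each), and fell by 1.08 (limma adjusted p = 0.0283). The call of ERI1 was lost when any 1 of the 3 vector libraries was left out. CASP8AP2, or FLASH, a component of the histone 3′ cleavage machinery, averaged 4.87 ± 0.847 FPKM with overexpression and 8.04 ± 0.512 FPKM with vector, and fell by 0.89 (limma adjusted p = 0.00235). Without centring the list had 7 higher and 2 lower, beside 37.4% and 11.9% of all rows. Its balance thus depended on the scaling, as did that of all rows, while CCNE2 and CASP8AP2 were lower with and without centring.

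Replication-independent variants, made outside S phase, mostly from polyadenylated mRNA, had 6 of 10 tested genes higher and none lower, with a median of 0.29, beside 24% and 19.2% of all rows. With quantile normalization 4 were higher and 5 lower, beside 19.2% and 20.9% of all rows. Removing the length and GC trend left 2 of each, beside 21% and 18.6% of all rows. H1F0, the linker histone of differentiated and slowly dividing cells, had 37.96, 43.84 and 42.55 FPKM in overexpression libraries, against 10.91, 9.81 and 11.5 FPKM in vector libraries, and rose by 1.69 ± 0.10 (limma adjusted p = 0.000131), a larger value than that of any H1 cluster gene, although the 2 were not tested against each other. H1FX, another linker variant, rose by 1.21 ± 0.11 (limma adjusted p = 0.000459), and H2AFJ, an H2A variant, by 0.82 ± 0.17 (limma adjusted p = 0.00926), a call that was lost, at 0.14, once the length and GC trend was removed. In the fits that each left out a library the count of higher variants was 3 to 4, so none of them reached 6. It was 3 without overexpression replicate 2, overexpression replicate 3 or vector replicate 2. Over all tested rows these fits called 1728 to 2159 higher, against 2331 with all libraries.

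Of 16 tested histone chaperones, 4 were higher and 2 lower, with a median of -0.12, beside 24% and 19.2% of all rows. With quantile normalization 2 were higher and 5 lower, beside 19.2% and 20.9% of all rows. SUPT16H and SSRP1, the subunits of the FACT complex that moves H2A and H2B dimers, averaged 40.1 ± 1.75 and 47.0 ± 0.940 FPKM in overexpression libraries, against 16.2 ± 1.17 and 23.1 ± 2.38 FPKM in vector libraries (SD, n = 3 each). They rose by 1.08 ± 0.08 (limma adjusted p = 0.000265) and 0.81 ± 0.09 (limma adjusted p = 0.000834). NASP, a chaperone of H3, H4 and linker histones, had 10.51, 10.04 and 7.53 FPKM with overexpression, against 13.12, 13.48 and 14.39 FPKM with vector, and fell by 0.74 (limma adjusted p = 0.00502). The count of lower chaperones was 1 without overexpression replicate 2, vector replicate 1 or vector replicate 3.

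Genes of DNA synthesis in S phase, when cluster histones are made, had more lower than higher calls relative to the median row: 8 of 30 were higher and 11 lower, with a median of -0.19, beside 24% and 19.2% of all rows. The median of the histone members was 0.66 on that scale. Quantile normalization gave 2 higher and 13 lower, beside 19.2% and 20.9% of all rows. Removal of the length and GC trend gave 5 higher and 11 lower, beside 21% and 18.6%. Without centring the balance turned, with 11 higher and 6 lower, beside 37.4% and 11.9%. Lower calls thus outnumbered higher ones in 3 of the 4 scalings. With quantile normalization the median was -0.32 for the S phase genes and 0.18 for the histone members. With the length and GC trend removed these medians were -0.27 and -0.01. GINS1, a subunit of the replicative helicase, had 6.77, 12.68 and 4.85 FPKM in overexpression libraries, against 21.74, 23.11 and 20.75 FPKM in vector libraries, and fell by 1.69 (limma adjusted p = 0.00518). E2F1, a transcription factor of S phase entry, fell by 0.87 (limma adjusted p = 0.00411), and CDC45, a helicase partner, by 0.78 (limma adjusted p = 0.00221).

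In every fit that left out a library fewer rows were called over the whole table. Such fits called 1728 to 2159 of all tested rows higher and 1383 to 1618 lower, against 2331 and 1866 with all 6 libraries. The S phase counts were smaller in all of these fits too, at 3 to 7 higher and 6 to 10 lower. Higher calls of S phase genes were 5 without overexpression replicate 1, 3 without overexpression replicate 3 and 5 without vector replicate 1. Lower calls were 6 without overexpression replicate 2 and 7 without overexpression replicate 3, vector replicate 1 or vector replicate 3. Neither these genes nor the processing factors were set against the histone members by a test.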

How the data were processed

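RNA of 6 libraries of MIA PaCa-2 cells was analysed from the deposited gene table, 3 of LINC00901 overexpression and 3 of vector. Its values are FPKM made by the authors, whose submitters' processing notes name cutadapt, FastQC, HISAT2 and hg19. The sources used here do not give versions, the counting tool, the gene lengths or the handling of reads that match several genes. Depth is unknown, so no count model was used.

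The members, gene lists and tests were chosen with earlier results of these data known. Rows with a mean of at least 1 FPKM (9694 of 18268) were put on log2(FPKM + 0.5), centred per library on the median of the tested rows, and compared with limma 3.58.1 (R 4.3.3) using its intensity trend, without a replicate block. P-values were Benjamini-Hochberg adjusted over all tested rows, with a threshold of 0.05. Centring was used because the median row differed by 0.21 (log2) between groups. Class sums and shares were compared by 2-sided exact permutation tests.

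Genes named in each class were the 3 with the highest mean, the 3 largest rises past the threshold and all that fell. To these came cluster genes known to give polyadenylated mRNA and, from each other list, at most 3 called genes with the largest difference. Other genes were named after their values were seen.

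Neighbours, stem-loops, coding sequences, transcript lengths and GC content came from GENCODE 29, and promoters from RefSeq (GRCh38.p14). They were matched by symbol, because the table gives no coordinates. Lengths were known for 91.1% of tested rows and all tested members. The fit was tested on simulated data. Python 3.11.15, pandas 2.3.3 and scipy 1.17.1 were used. Alternatives were other pseudocounts, filters, scalings, a replicate block, no trend, joined rows left out, and each library left out.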

Additional observations from a re-analysis of the deposited data

How the results depend on the processing

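The replicate numbers do not pair the libraries: the deviations of same-numbered libraries correlated at -0.037, -0.0057 and -0.0050. With the replicate number as a block, 26 members were higher and 3 lower, the lower H2A genes were 1, the higher variants 3 and the higher S phase genes 5. Without centring, 3621 rows were higher and 1152 lower, 3 members were lower, H2A genes were 7 higher and 1 lower, processing genes 7 higher and 2 lower, 1 chaperone was lower and 6 S phase genes were lower. With quantile normalization, 15 members were higher and 12 lower (H2B 3 and 5, H4 4 and 2, H3 2 higher), and 1 processing gene was higher, 5 variants lower, chaperones 2 higher and 5 lower, and 2 S phase genes higher. With the length and GC trend removed, 11 members were higher and 11 lower (H2A 2 higher, H2B 3 and 5, H3 1 and 2, H4 2 and 1), variants 2 and 2, and S phase genes 5 higher. With a mean of at least 5 FPKM, 1311 rows were higher and 982 lower, 3 members were lower (0 H2B, 0 H3), variants were 3 higher and 3 lower, and 4 S phase genes higher. With no filter, 1 H2A gene, 2 H2B genes and 1 chaperone were lower. Limma without the trend called 3 members and 1 H2A gene lower, and a pseudocount of 0.1 called 1 variant lower. The log2 difference of the class sums, divided by the median of the tested rows, was 0.57 for all members, 0.93 for H1, 0.28 for H2A, 0.37 for H2B, 0.77 for H3 and 0.66 for H4. Scaled to the FPKM sum of all rows it was 0.25, 0.61, -0.043, 0.055, 0.45 and 0.34 in the same order, so H2A reversed. Without the highest member it was 1.29 for H1 and 0.63 for H2A, and the share differences were 2.75 and -3.13 percentage points. Leaving out each library gave 3 to 5 lower members, 1 to 3 lower H2A genes (1 without vector replicate 3), 1 to 2 higher processing genes, 3 to 4 higher variants, 1 to 3 lower chaperones, and 3 to 7 higher and 6 to 10 lower S phase genes; of the 33 called members 27 kept their call in all 6 fits. Log2 differences that changed sign with the length and GC trend removed were those of HIST1H1B (-0.0091), HIST1H2AG (-0.040), HIST1H2AJ (-0.15), HIST1H2BB (-0.69), HIST1H2BM (-0.061), HIST1H2BO (-0.55), HIST1H3A (-0.55), HIST1H3C (-0.027), HIST1H4B (-0.55), HIST1H4D (-0.17), HIST1H4H (-0.092), HIST1H4L (-0.024), HIST2H2AA3 (-0.41), HIST2H2AA4 (-0.38), HIST2H2AB (-0.00060), HIST2H3D (-0.29) and HIST4H4 (-0.25). With quantile normalization they were those of HIST1H1B (-0.0027), HIST1H2AG (-0.37), HIST1H2BB (-0.55), HIST1H2BO (-0.46), HIST1H3A (-0.17), HIST1H4B (-0.68), HIST1H4D (-0.027), HIST1H4H (-0.44), HIST1H4I (0.080), HIST2H2AA3 (-0.35) and HIST2H2AA4 (-0.34). Without centring they were those of HIST1H2AH (0.029), HIST1H2BC (0.047), HIST1H2BJ (0.040), HIST1H3E (0.11) and HIST1H4I (0.21). With a mean of at least 5 FPKM they were those of HIST1H2AG (-0.047), HIST1H2BB (-0.095) and HIST1H4B (-0.0051), and HIST1H4I stood at 0.058 with no filter and 0.056 with a pseudocount of 0.1. Leaving out a library moved HIST1H2AG between -0.011 and 0.12, HIST1H2BB between -0.13 and 0.14, HIST1H2BC between -0.29 and 0.034, HIST1H2BJ between -0.30 and 0.0057 and HIST1H4I between -0.28 and 0.37. The cause of these changes was not tested. The depth of the libraries is unknown, so the counting error of low members could not be given, and members with near-identical copies hold values that depend on how their reads were shared out.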
